A study of Homo sapiens and Mus musculus with 17 samples.

Results

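PHGDH, PSAT1, PSPH, SHMT1, SHMT2, MTHFD1L, MTHFD2, ALDH1L2, ASNS and PCK2 encode enzymes of serine synthesis, of folate-bound one-carbon metabolism and of the reactions that draw on both. These 10 genes were taken by symbol, ignoring case, from the human and the mouse expression table, where each symbol matched 1 row among 62714 human and among 55491 mouse genes. The set was chosen partly because Mthfd2 and Pck2 are higher in knockout brown fat, so the mouse knockout levels of the members below are a description without a test. That reason does not involve the human comparisons, which were tested. The members were, however, chosen with earlier results of these data known.

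PolyA RNA was sequenced from 9 libraries of HEK293T, an established line from human embryonic kidney, and from the brown adipose tissue, BAT, of 8 mice. The HEK293T groups were 3 WT, 3 SEL1L KO and 3 HRD1 KO libraries, in which CRISPR/Cas9 was aimed at SEL1L or at SYVN1, the gene of HRD1; by the study's methods, the WT cells received empty plasmid with no guide. The labels do not say whether a knockout line is 1 clone or whether replicates were grown apart, so p-values measure only the spread between these libraries. The BAT came from 12-week-old C57BL/6J mice and comprised 3 WT, 3 Sel1L KO (Sel1l flox/flox; Ucp1-Cre) and 2 Hrd1 KO (Hrd1 flox/flox; Ucp1-Cre) libraries, from littermates by the methods. Ucp1-Cre acts in brown adipocytes, so the other cells of the tissue keep the floxed gene. SEL1L and HRD1 form an endoplasmic reticulum complex that sends misfolded proteins to the proteasome, and these groups ask how expression differs without it.

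In serine synthesis, PHGDH oxidises the glycolytic intermediate 3-phosphoglycerate, PSAT1 transaminates the product and PSPH removes the phosphate. SHMT1 in the cytosol and SHMT2 in mitochondria then move a carbon unit from serine to folate, MTHFD2 and MTHFD1L carry that unit to formate inside mitochondria, and ALDH1L2 oxidises it to carbon dioxide. ASNS makes asparagine from aspartate, and PCK2 makes phosphoenolpyruvate in mitochondria, which can feed back toward serine. Several of these genes are textbook targets of ATF4, the transcription factor of the integrated stress response, which also follows stress in the endoplasmic reticulum.

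All members are protein coding. In the human build GRCh38 (GENCODE release 44), PHGDH lies at chr1:119648411-119744218, PSAT1 at chr9:78297125-78330093, PSPH at chr7:56011051-56051604, SHMT1 at chr17:18327860-18363563 and SHMT2 at chr12:57229573-57234935. MTHFD1L lies at chr6:150865679-151101887, MTHFD2 at chr2:74186172-74217565, ALDH1L2 at chr12:105019784-105107643, ASNS at chr7:97851677-97872542 and PCK2 at chr14:24094053-24110598. In the mouse build GRCm38 (GENCODE release M21), Phgdh lies at chr3:98313170-98339990, Psat1 at chr19:15904678-15947337, Psph at chr5:129765558-129787449, Shmt1 at chr11:60788104-60811718 and Shmt2 at chr10:127517123-127522444. Mthfd1l lies at chr10:3973118-4167081, Mthfd2 at chr6:83305691-83325908, Aldh1l2 at chr10:83487450-83534140, Asns at chr6:7675169-7693254 and Pck2 at chr14:55540266-55551242.

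The targeted genes did not always follow the labels. SEL1L was 1.82 to 3.36 FPKM (fragments per length of transcript and per total of mapped fragments) in the SEL1L KO cells and 4.39 to 12.9 in WT, but SYVN1 was 18.5 to 22.5 in the libraries labelled HRD1 KO and 16.7 to 16.9 in WT. In BAT, Sel1l was 25.2, 8.17 and 8.38 FPKM in the libraries labelled Sel1L KO against 9.10 to 12.9 in WT, and Syvn1 was 14.1 and 13.8 in the libraries labelled Hrd1 KO against 5.20 to 5.65. In the other knockout, SEL1L was 3.79, 19.3 and 24.1 in HRD1 KO cells, and SYVN1 was 25.9 to 28.9 in SEL1L KO cells. Sel1l was 57.6 and 65.2 in Hrd1 KO BAT, and Syvn1 was 118, 16.55 and 9.96 in Sel1L KO BAT. A level summed over a whole gene does not show whether the targeted exon is present. Group names and directions below are therefore those of the labels, and "Hrd1 KO" stands for the libraries labelled so. Sel1L KO replicate 1 stood apart from its group, with 362 FPKM of Atf4 against 48.3 and 58.6 in the other libraries labelled Sel1L KO and 122 FPKM of Atf3 against 0.56 and 4.24. The summed level of 10 skeletal muscle markers was 458 in Hrd1 KO replicate 1 and 81.8 in Sel1L KO replicate 1, against 3.17 to 15.1 in the other knockout libraries and 1.68 to 4.74 in WT. The summed level of 8 macrophage and leukocyte markers was 66.8 to 133 in the 5 knockout libraries and 33.2 to 41.0 in WT. Their part in the results was not tested, and results that rest on Sel1L KO replicate 1 or Hrd1 KO replicate 1 are given without them as well. Summed brown adipocyte markers were 19063 to 25407 in the knockout libraries and 25477 to 28932 in WT. The 10 markers did not fall together. Their log2 differences from WT spanned -2.82 to 0.63 for Hrd1 KO, with a median of -0.41. For Sel1L KO the span was -1.67 to 2.13, with a median of -0.24. In tissue, fewer cells of a type and less RNA per cell cannot be told apart.

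In BAT, 7 of the 10 enzymes were higher in every knockout library than in every WT library: Phgdh, Psat1, Shmt2, Mthfd2, Aldh1l2, Asns and Pck2. Psph, Shmt1 and Mthfd1l were not. Of 12473 tested genes, 51.1% had every Hrd1 KO library above WT, 17.7% every Sel1L KO library and 15.0% both. After median-ratio scaling, which sets the typical gene to the same level in every library, these shares were 21.1%, 12.8% and 7.78%. The same 7 enzymes stayed above WT after that scaling, without Sel1L KO replicate 1, without Hrd1 KO replicate 1 and without both. The genes were chosen with these levels known, so nothing is read from the count.

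**Figure D1:**
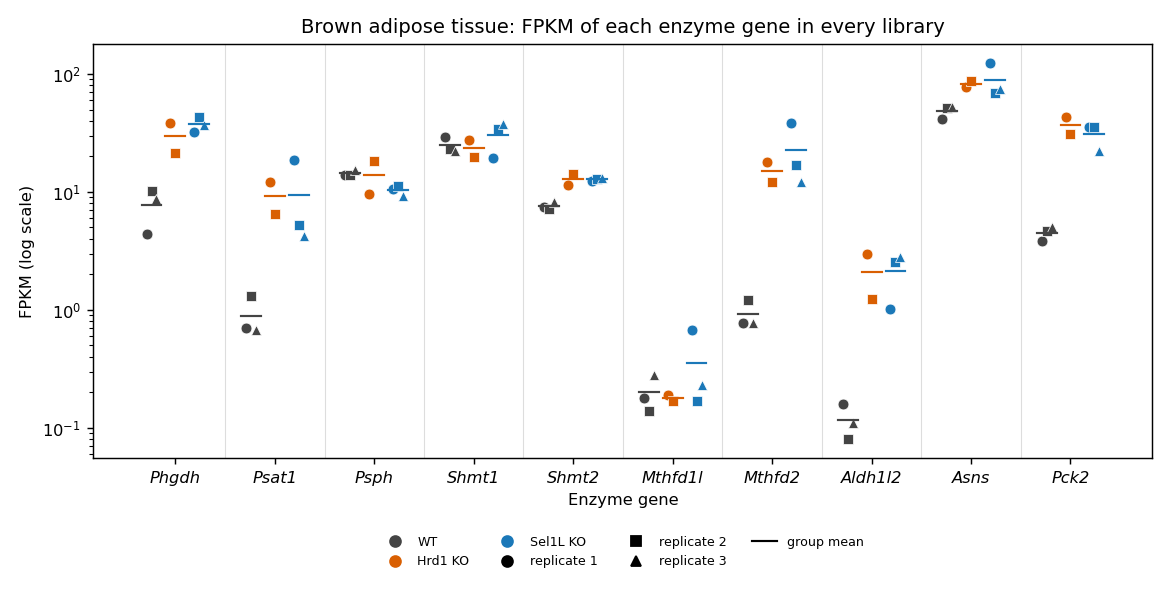
FPKM (log scale) of the 10 enzyme genes in the 8 BAT libraries; points are libraries, coloured by group and shaped by replicate number, and bars are group means. Mthfd2 lies between 0.78 and 1.21 in WT and between 12.1 and 38.7 in the knockouts, whereas Psph, Shmt1 and Mthfd1l have knockout libraries at or below the WT levels.

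Mthfd2, the mitochondrial dehydrogenase and cyclohydrolase of the folate pathway, had the largest log2 difference of the members in both genotypes on the log2(FPKM + 0.1) scale. By the ratio of group means, Aldh1l2 stood above it in Hrd1 KO, at 18.1 times WT against 16.4, while in Sel1L KO Mthfd2 was at 24.4 times and Aldh1l2 at 18.2. Its level was 0.78, 1.21 and 0.78 FPKM in WT, 18.01 and 12.2 in the libraries labelled Hrd1 KO and 38.7, 16.9 and 12.1 in those labelled Sel1L KO. The gene was thus close to 1 FPKM in WT and above 12 FPKM in every knockout library, with Sel1L KO replicate 1 highest. The log2 difference from WT was 3.89 ± 0.47 (SE) for Hrd1 KO and 4.32 ± 0.42 for Sel1L KO. Without Sel1L KO replicate 1 the latter was 3.84. In rank, Mthfd2 stood at percentile 3.62 of the genes with at least 1 FPKM in the 1 WT library where it reached that level, and at percentiles 57.2 to 82.1 in the knockouts.

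Aldh1l2, the mitochondrial formyl-tetrahydrofolate dehydrogenase, was listed at 0.16, 0.08 and 0.11 FPKM in WT, 3 and 1.23 in Hrd1 KO and 1.01, 2.57 and 2.80 in Sel1L KO. It thus stayed low even where it was highest, at no more than percentile 21.8 of expressed genes, and Sel1L KO replicate 1 was the lowest knockout library, the reverse of Mthfd2. Its log2 differences were 3.25 ± 0.61 and 3.26 ± 0.55, and they shrank to 1.42 and 1.43 with a pseudocount of 1. Without Hrd1 KO replicate 1 the former was 2.63, and without Sel1L KO replicate 1 the latter was 3.70. Shmt2, the mitochondrial serine hydroxymethyltransferase, was 7.49, 7.18 and 8.24 FPKM in WT, 11.5 and 14.1 in Hrd1 KO and 12.4, 12.8 and 13.1 in Sel1L KO. The Sel1L KO libraries differed from each other by less than 1 FPKM here, and the mean was 1.68 times that of WT in Hrd1 KO and 1.67 times in Sel1L KO. The last mitochondrial folate enzyme of the set, Mthfd1l, which releases formate, was at 0.14 to 0.28 FPKM in WT, 0.17 and 0.19 in Hrd1 KO and 0.67, 0.17 and 0.23 in Sel1L KO. It did not reach 1 FPKM in any library and was the only member left out by the filter on low values. Shmt1, the cytosolic counterpart of Shmt2, was 29.2, 23.0 and 22.5 in WT, 27.6 and 19.9 in Hrd1 KO and 19.5, 34.0 and 37.6 in Sel1L KO, so that its groups overlapped.

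The serine synthesis enzymes did not move as a block. Phgdh was 4.40, 10.3 and 8.78 FPKM in WT, 38.8 and 21.3 in Hrd1 KO and 32.2, 43.6 and 36.9 in Sel1L KO. Psat1 was 0.70, 1.3 and 0.67 in WT, 12.1 and 6.49 in Hrd1 KO and 18.8, 5.21 and 4.23 in Sel1L KO. Both were above WT in every knockout library, with log2 differences of 1.95 ± 0.39 and 2.33 ± 0.35 for Phgdh and 3.24 ± 0.63 and 2.99 ± 0.56 for Psat1 in Hrd1 KO and Sel1L KO. Psat1 in Sel1L KO fell from 2.99 to 2.33 without replicate 1. Psph, which completes the pathway, was 13.9, 14.0 and 15.3 in WT, 9.67 and 18.3 in Hrd1 KO and 10.6, 11.2 and 9.26 in Sel1L KO. The Sel1L KO libraries were all below WT for Psph (log2 difference -0.48 ± 0.24), as they were for 8.43% of tested genes, and those of Hrd1 KO lay on either side of it, so that the Hrd1 KO difference of -0.11 became 0.34 without Hrd1 KO replicate 1. In WT tissue Psph was therefore the most abundant of these 3 mRNAs per length, and in every knockout library Phgdh was.

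Pck2, the mitochondrial phosphoenolpyruvate carboxykinase, was 3.81, 4.64 and 5.01 FPKM in WT, 43.5 and 31.1 in Hrd1 KO and 35.5, 35.5 and 22.4 in Sel1L KO. Its spread within groups was small beside the distance between them, with log2 differences of 3.02 ± 0.27 and 2.74 ± 0.24, and Sel1L KO replicate 1 did not stand apart. Its rank went from percentiles 31.1 to 36.1 in WT to 75.3 to 85.0 in the knockouts. Asns was the most abundant member in BAT, at 41.3, 52.0 and 52.5 FPKM in WT, 77.9 and 87.1 in Hrd1 KO and 125, 69.6 and 74.9 in Sel1L KO. The mean was 1.70 times WT in Hrd1 KO and 1.85 times in Sel1L KO, so that the member with the highest WT level had one of the smallest differences above WT.

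These differences sit on a shift of the whole table in Hrd1 KO. The median log2 difference of all tested genes was 0.42 in Hrd1 KO and 0.09 in Sel1L KO. After median-ratio scaling, the log2 differences in Hrd1 KO were 3.46 for Mthfd2, 2.87 for Aldh1l2, 2.80 for Psat1, 2.57 for Pck2 and 1.503 for Phgdh. For Asns and Shmt2 they came down to 0.32 and 0.29, with every library still above WT, while Psph and Shmt1 went from -0.11 and -0.08 to -0.56 and -0.52. The most abundant transcript, mt-Atp8, was 239013 to 252858 FPKM in WT, 130600 and 184791 in Hrd1 KO and from 182396 to 222250 in Sel1L KO, and its part in the shift was not tested. In Sel1L KO the scaling moved the 9 members by at most about the 0.09 of the median, for example to 4.23 for Mthfd2 and 0.74 for Asns. Aldh1l2, Mthfd2 and Psat1 reached the filter of 1 FPKM in 2 libraries through the knockouts, since 0, 1 and 1 of their WT libraries did so.

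**Figure D2:**
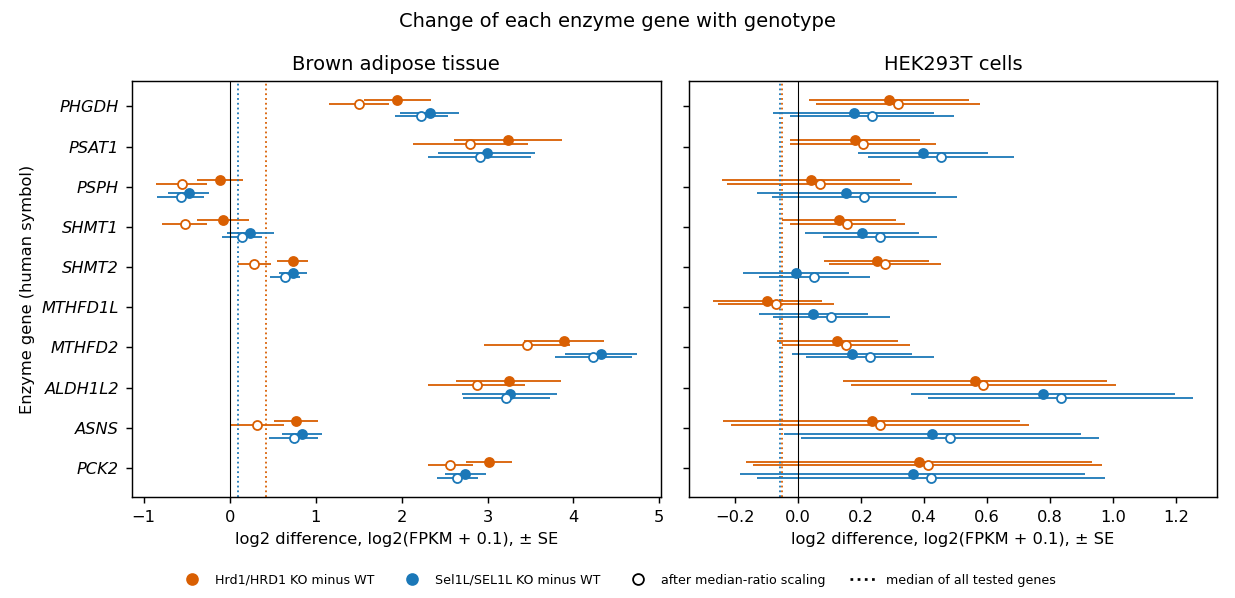
Log2 difference from WT (± SE, on the log2(FPKM + 0.1) scale) of each enzyme gene in BAT (left) and HEK293T cells (right), for both knockouts, with the values after median-ratio scaling as open circles and the median of all tested genes as dotted lines; the panels have different ranges. In BAT the differences reach 4.32, in HEK293T cells at most 0.78, and Mthfd1l was not tested in BAT.

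The 2 knockout genotypes of BAT were compared directly for the same genes. Between Hrd1 KO and Sel1L KO, the log2 differences of the 9 tested members ran from -0.42 ± 0.47 for Mthfd2 to 0.36 ± 0.27 for Psph, while the median of all tested genes was 0.30. In this comparison limma called 0.0401% of tested genes at an adjusted p under 0.01. The intervals are wide with 2 libraries in Hrd1 KO (for Mthfd2, 95% from -1.496 to 0.65), so the genotypes cannot be said to act alike.

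Set against their isoenzymes in the same library, which removes any common scaling, the mitochondrial members were the minor form in WT BAT in all 5 pairs. The log2 ratio of Mthfd2 to Mthfd2l, its paralog with the same reactions, was -3.27, -2.49 and -3.31 in WT, 1.86 and 0.51 in Hrd1 KO and 3.19, 1.53 and 1.15 in Sel1L KO. The order of these isoenzymes was thus opposite in WT and in every knockout library. Pck2 to Pck1, the cytosolic carboxykinase, was -8.46, -8.33 and -8.55 in WT, -4.62 and -4.68 in Hrd1 KO and -5.81, -4.76 and -5.26 in Sel1L KO, so that Pck1, at 798 to 1992 FPKM, remained far more abundant throughout. Aldh1l2 to its cytosolic counterpart Aldh1l1 was -8.26 to -7.54 in WT and -5.04 to -2.96 in the knockouts. Shmt2 to Shmt1 was -1.96 to -1.45 in WT and -1.52 to -0.50 in the knockouts, with overlap, and Mthfd1l to Mthfd1 was -6.54 to -5.66 and -6.86 to -4.00. As the ratios share the genes the set was chosen on, they carry no test.

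**Figure D3:**
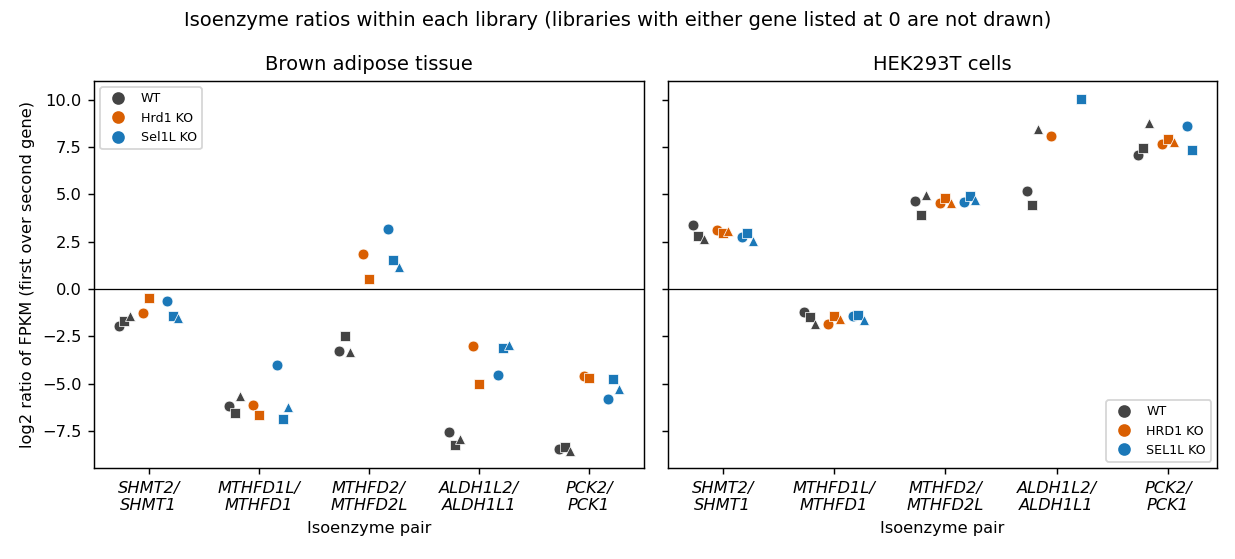
Log2 ratio of FPKM of each mitochondrial member to its isoenzyme in each BAT (left) and HEK293T (right) library, coloured by group and shaped by replicate number. In BAT the ratio of Mthfd2 to Mthfd2l lies below 0 in the 3 WT libraries and above 0 in the 5 knockout libraries, and in HEK293T cells 4 of the 5 ratios lie above 0 in each library drawn.

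HEK293T cells expressed the set at another level, and no member differed between genotypes past the threshold. PHGDH ranged over the 9 libraries from 347 to 706 FPKM, SHMT2 from 237 to 341, MTHFD2 from 176 to 275, ASNS from 67.0 to 269, PSAT1 from 116 to 204 and PCK2 from 26.3 to 116. MTHFD1L was 36.8 to 51.1, SHMT1 31.5 to 46.7, PSPH 20.5 to 36.4 and ALDH1L2 7 to 28.5. PHGDH was the highest and ALDH1L2 the lowest by group mean in all 3 groups, whereas the range of PCK2 overlapped those of MTHFD1L, SHMT1 and PSPH. MTHFD2, close to 1 FPKM in WT BAT, stood at percentiles 95.2 to 97.3 of expressed genes here. Of 18 rows named as pseudogenes of members, 17 stayed below 0.5 FPKM in every library; 1 row of ASNSP1 reached 9.34 and may share reads with ASNS.

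The isoenzymes in HEK293T cells were ordered the other way from WT BAT in 4 of the 5 pairs. SHMT2 was 5.80 to 10.5 times SHMT1 and MTHFD2 15.0 to 30.8 times MTHFD2L, while ALDH1L1 and PCK1 were at 0 to 0.65 and 0 to 0.69 FPKM. MTHFD1L alone stayed below its partner MTHFD1, at 0.27 to 0.44 times. The genotype moved none of these ratios beyond the spread. The differences of the mean log2 ratio from WT were 0.12 and -0.21 for SHMT2 to SHMT1, 0.14 and 0.25 for MTHFD2 to MTHFD2L and -0.12 and 0.01 for MTHFD1L to MTHFD1 in HRD1 KO and SEL1L KO. For PCK2 to PCK1 in HRD1 KO the difference was 0.01. Two-sided exact permutation tests gave p of 0.60 to 1.00 for these 7 comparisons, with an adjusted p of 1.00 each, where 3 libraries against 3 cannot go below 0.10. PCK1 in SEL1L KO and ALDH1L1 in both knockouts were listed at 0 in some libraries, so their ratios were not tested.

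**Figure D4:**
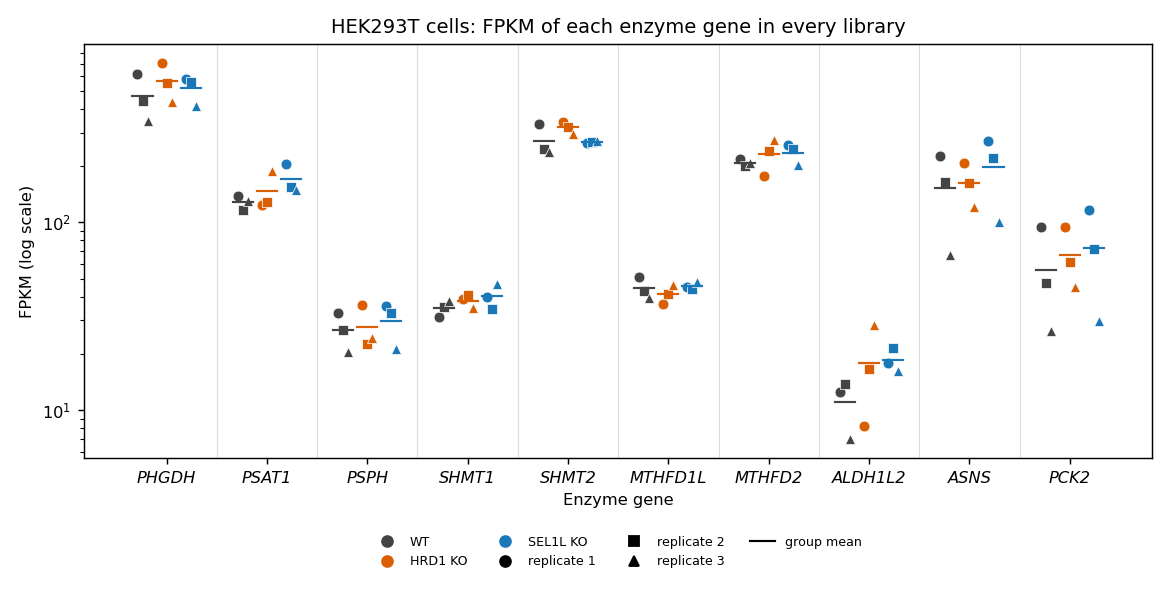
FPKM (log scale) of the 10 enzyme genes in the 9 HEK293T libraries, coloured by group and shaped by replicate number, with bars at group means. The groups overlap for 8 genes, ALDH1L2 and PSAT1 in SEL1L KO lie above WT, and PCK2, ASNS, PHGDH and PSPH are higher in each replicate 1 library than in each replicate 3 library.

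For the comparison of each HEK293T knockout with WT, limma called 0 of the 10 members in HRD1 KO and 0 in SEL1L KO (adjusted p of 1.00 for each), where it called 0.057% and 0.0317% of 15796 tested genes. No member had an unadjusted p under 0.05 in either. The median log2 difference of the members was 0.21 in HRD1 KO and 0.19 in SEL1L KO, beside -0.05 and -0.06 for all tested genes. ALDH1L2 had the largest value in both. It was 12.5, 13.8 and 7 FPKM in WT, 8.24, 16.6 and 28.5 in HRD1 KO and 17.8, 21.3 and 16.2 in SEL1L KO, with log2 differences of 0.56 (95% interval from -0.37 to 1.496) and 0.78 (-0.16 to 1.71). PSAT1 was 137, 116 and 129 in WT and 204, 154 and 149 in SEL1L KO, with a log2 difference of 0.40 (-0.06 to 0.86). ALDH1L2 and PSAT1 were the members whose SEL1L KO libraries all lay above WT, which held for 2.41% of tested genes, and no member did so in HRD1 KO, where the share was 1.96%, or in both knockouts (0.589%). MTHFD2 differed from WT by 0.12 (-0.30 to 0.55) in HRD1 KO and by 0.17 (-0.26 to 0.60) in SEL1L KO, beside 3.89 and 4.32 in BAT, and the difference between the tables was not tested. For PCK2 they were 0.38 (-0.84 to 1.61) and 0.36 (-0.86 to 1.59), so differences anywhere within these wide intervals remain possible.

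HEK293T libraries of the same replicate number resembled each other, so the knockouts were also compared within numbers. PHGDH, SHMT2 and PCK2 were higher in HRD1 KO than in the WT library of the same number in 3 of 3 pairs, and PSAT1, PSPH, ALDH1L2, ASNS and PCK2 were so in SEL1L KO, as were 9.7% and 10.4% of tested genes. With the replicate number as a block, the count of members called remained 0, with a smallest adjusted p from limma of 0.77 in HRD1 KO and 0.88 in SEL1L KO. At an unadjusted p under 0.05 the blocked fit had 1 member in each, PHGDH in HRD1 KO (0.29, 95% interval from 0.03 to 0.54) and ASNS in SEL1L KO (0.43, 0.01 to 0.84). Of all 15796 tested genes, 968 and 874 had such a p in that fit, so nothing is read from these members. Between HRD1 KO and SEL1L KO, limma also called 0 members and 0 of all tested genes, with 369 genes at an unadjusted p under 0.05 (2 called with the block). The member differences ran from -0.22 ± 0.21 for PSAT1 to 0.26 ± 0.17 for SHMT2.

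The replicate number itself went with 4 of the enzymes. This comparison was added after the values had been seen, and the labels do not say what the numbers stand for. PCK2 was 93.8, 94.2 and 116 FPKM in the replicate 1 libraries of WT, HRD1 KO and SEL1L KO, and 26.3, 45.1 and 29.8 in the replicate 3 libraries. ASNS was 225, 206.5 and 269 against 67.0, 120 and 100. Both were thus higher with number 1 in each genotype, by 2.09 to 3.88 times for PCK2 and 1.72 to 3.35 times for ASNS. PHGDH was 615, 706 and 582 against 347, 439 and 418, and PSPH was 33.0, 36.4 and 36.0 against 20.5, 24.1 and 21.04. In limma's fit with genotype and number, these 4 members were higher in replicate 1 than in replicate 3, with log2 differences of 1.61 ± 0.19 for PCK2 (adjusted p = 0.0014), 1.32 ± 0.18 for ASNS (0.0024), 0.66 ± 0.11 for PHGDH (0.0045) and 0.68 ± 0.17 for PSPH (0.017). Of all tested genes, 13.7% were called higher and 14.9% lower. The other 6 members were not called, with values from -0.27 ± 0.40 for ALDH1L2 to 0.22 ± 0.13 for SHMT2, and MTHFD2 at -0.08 ± 0.17. Of the members that stood highest above WT in BAT, PCK2 and PHGDH thus passed here and MTHFD2, ALDH1L2 and PSAT1 did not.

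Of the integrated stress response list, 10 of 17 tested genes were called higher and 2 lower in replicate 1, with a median of 0.68 beside -0.01 for all genes. NUPR1 (4.42 ± 0.73, adjusted p = 0.0042), GDF15 (3.89 ± 0.45, 0.0013), DDIT3, the transcription factor CHOP (2.05 ± 0.15, 4.3e-04), and CHAC1, a glutathione-degrading enzyme (1.41 ± 0.24, 0.0044), had the largest differences. Of the folate list AMT was called higher and 3 genes lower, among them SLC25A32 and SLC19A1. Of the methionine list CTH was called higher and MTRR and MAT2A lower, and of the proline and aspartate list 3 genes were called higher, among them ASS1 and PYCR1, and ASNSD1 and GLUL lower. GART, PPAT and PAICS of purine synthesis, SFXN1, the mitochondrial serine carrier, and PGAM1 were called lower. The summed level of HEK293T markers was 546 to 757 in the replicate 1 libraries and 351 to 436 in the replicate 3 libraries. The 7 markers went both ways, with log2 differences from -2.30 to 1.92 and a median of 0.07, and 3 were called higher and 0 lower. The part of these levels in the results was not tested.

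The promoters of ASNS and MTHFD1L are shown because they were the members whose RefSeq promoter windows (GRCh38.p14, 250 bases before to 50 after a start) held the letters TGATGNAA, the core of the element that ATF4 dimers bind. The letters were searched on both strands. A match occurred in 2 of the 7 members with a window, and in 4.46% of 27305 genes with one. PHGDH, MTHFD2, PSAT1, PCK2 and SHMT1 had none in their windows, and PSPH, SHMT2 and ALDH1L2 were not in the table. Capitals mark the match, 68 bases before the start in ASNS (minus strand, chr7:97872359-97872658) and 129 before it in MTHFD1L (plus strand, chr6:150866236-150866535).
ASNS: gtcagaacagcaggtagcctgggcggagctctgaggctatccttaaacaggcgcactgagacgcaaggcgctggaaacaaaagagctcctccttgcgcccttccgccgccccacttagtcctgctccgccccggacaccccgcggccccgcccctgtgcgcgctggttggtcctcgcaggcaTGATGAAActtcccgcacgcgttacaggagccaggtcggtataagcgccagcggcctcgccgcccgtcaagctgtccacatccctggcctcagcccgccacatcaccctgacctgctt
MTHFD1L: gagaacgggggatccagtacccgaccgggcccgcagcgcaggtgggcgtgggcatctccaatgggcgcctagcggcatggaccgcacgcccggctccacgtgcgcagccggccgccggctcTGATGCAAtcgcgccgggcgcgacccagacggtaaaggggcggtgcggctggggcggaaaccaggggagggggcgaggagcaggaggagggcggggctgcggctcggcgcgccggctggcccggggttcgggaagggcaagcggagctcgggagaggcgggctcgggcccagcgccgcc
In the comparison of replicate numbers ASNS differed by 1.32 and MTHFD1L by -0.02 ± 0.15. A second window of ASNS and a distant start of MTHFD1L held no match, and 2 further MTHFD1L windows overlap the one shown and hold the same match.

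Around the members, 79 other genes in 7 pathway lists were examined in BAT, of which 71 were tested. The highest list medians and the only calls were in the integrated stress response, followed by the medians of proline, aspartate and glutamine metabolism. Atf5, a transcription factor of that response, was 39.6, 30.4 and 37.2 FPKM in WT, 176 and 200 in Hrd1 KO and 182, 165 and 113 in Sel1L KO, with log2 differences of 2.40 ± 0.22 (limma, adjusted p = 0.0045) and 2.08 ± 0.20 (0.0082). Nupr1, a stress-induced chromatin protein, was 58.6, 48.6 and 45.3 in WT, 187 and 189 in Hrd1 KO and 142, 153 and 136 in Sel1L KO, with 1.89 ± 0.15 (0.0025) and 1.504 ± 0.14 (0.0082). They rose in both genotypes and were the only pathway genes of 71 called, at 0.289% and 0.0882% of all tested genes called higher. After median-ratio scaling the adjusted p were 0.033 and 0.024 for Atf5 and 0.025 and 0.024 for Nupr1, above the threshold of 0.01. Leaving out any 1 WT or Hrd1 KO library also ended these calls, with adjusted p from 0.014 to 0.074, and leaving out Sel1L KO replicate 2 did so for Atf5 in both genotypes and for Nupr1 in Sel1L KO, as did leaving out Sel1L KO replicate 3 for the latter. Without Sel1L KO replicate 1, 11 pathway genes were called in Hrd1 KO (10 higher and 1 lower) and 3 in Sel1L KO. The calls among all 12473 tested genes then also went from 46 to 759 and from 13 to 61.

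The medians of the 17 tested stress response genes were 1.45 in Hrd1 KO and 1.44 in Sel1L KO, beside 0.42 and 0.09 for all genes. The genes that follow in this paragraph and Got1, Oat and Glul in the next were picked after their values were seen. Atf4 was 41.7, 40.8 and 42.1 FPKM in WT, 85.0 and 152 in Hrd1 KO and 362, 58.6 and 48.3 in Sel1L KO. Its mRNA was above WT in every knockout library, as for 15.0% of tested genes, but less so in Sel1L KO replicates 2 and 3. These 2 libraries still had 16.9 and 12.1 FPKM of Mthfd2 against 38.7 in replicate 1. Ddit3 was 25.1 to 37.4 in WT, 128 and 269 in Hrd1 KO and 298, 98.3 and 72.7 in Sel1L KO (adjusted p = 0.046 and 0.10). Fgf21 and Gdf15, secreted factors, were listed at 0 in the 3 WT libraries, and at 1.85 to 99.1 and 0.40 to 14.9 in the knockouts. They thus passed the filter on low values only through the knockouts, and they count in the list medians above.

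Among the 13 genes of proline, aspartate and glutamine metabolism, none was called, while 7 were higher and 1 lower at an unadjusted p under 0.05 in each genotype, with medians of 0.60 and 0.61. At that p, 25.4% of all tested genes were higher and 2.02% lower in Hrd1 KO, and 12.7% and 5.08% in Sel1L KO. The largest differences were those of Pycr1 and Aldh18a1, which make proline from glutamate. They were 2.32 ± 0.61 and 2.47 ± 0.55 for Pycr1 (limma, adjusted p = 0.066 and 0.077). For Aldh18a1 they were 2.16 ± 0.69 and 2.34 ± 0.62 (0.10 and 0.12). The size for Pycr1 depended on the processing. Under the alternative settings other than leaving out a library, it ran from 0.87 to 3.03 in Hrd1 KO. In Sel1L KO it ran from 0.96 to 3.19. Got1, the cytosolic aspartate aminotransferase, was 5.26 to 5.62 FPKM in WT, 16.1 and 17.4 in Hrd1 KO and 49.8, 20.3 and 15.5 in Sel1L KO (adjusted p = 0.067 and 0.048). Oat, ornithine aminotransferase, was 31.4 to 36.8 in WT and 60.8 to 75.0 in the knockouts (0.019 and 0.032). Glul, glutamine synthetase, was 1256 to 1464 in WT and 648 to 976 in the knockouts (0.040 and 0.086). For Got1 and Oat every knockout library was above every WT library, as for 15.0% of tested genes. For Glul every knockout library was below, as for 352 of 12473.

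The remaining lists held no call in either genotype. In Hrd1 KO their medians were below the 0.42 of all genes. In Sel1L KO, where all genes had 0.09, the methionine list and purine synthesis were above it, at 0.25 and 0.26, and the others below. The 14 tested folate enzymes and carriers had medians of 0.29 and -0.10. Among their larger values were 1.19 ± 0.38 for Slc19a1, the folate carrier of the cell membrane, in Hrd1 KO, and 0.65 ± 0.26 for the mitochondrial carrier Slc25a32 and -0.51 ± 0.25 for Mthfd2l in Sel1L KO. The cytosolic folate enzyme Mthfd1 was 12.9 to 14.1 FPKM in WT and 10.7 to 19.8 in the knockouts. In the methionine list (8 tested, medians 0.26 and 0.25) the largest were Cbs (1.33 ± 1.06) and Gnmt (-1.29 ± 0.57) in Hrd1 KO and Gnmt (-1.64 ± 0.51) and Cth (1.35 ± 0.73) in Sel1L KO. Cbs was 0.38 and 5.59 in the libraries labelled Hrd1 KO and Cth was 29.0 in Sel1L KO replicate 1 against 4.45 and 4.94 in the others, so 1 library decided each.

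Serine and glycine use (6 tested, medians 0.17 and -0.01) had its largest values in Sfxn1 (0.57 ± 0.17) and Glyctk (0.32 ± 0.51) in Hrd1 KO and in Sardh (-0.63 ± 0.30) and Glyctk (0.31 ± 0.45) in Sel1L KO. Purine synthesis, a main user of one-carbon units (6 tested, medians 0.35 and 0.26), had Pfas (0.99 ± 0.39) and Gart (0.48 ± 0.21) in Hrd1 KO and Pfas (0.41 ± 0.35) and Atic (0.37 ± 0.19) in Sel1L KO. The phosphoenolpyruvate list (7 tested, medians -0.16 and -0.31) had Pck1 (-0.75 ± 0.35) and Fbp2 (-0.33 ± 0.37) in Hrd1 KO and Fbp2 (-1.21 ± 0.33) and Eno1 (-0.52 ± 0.28) in Sel1L KO. Pck2 stood above WT beside this list, but the set was chosen partly for that rise, so nothing is read from the contrast.

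**Figure D5:**
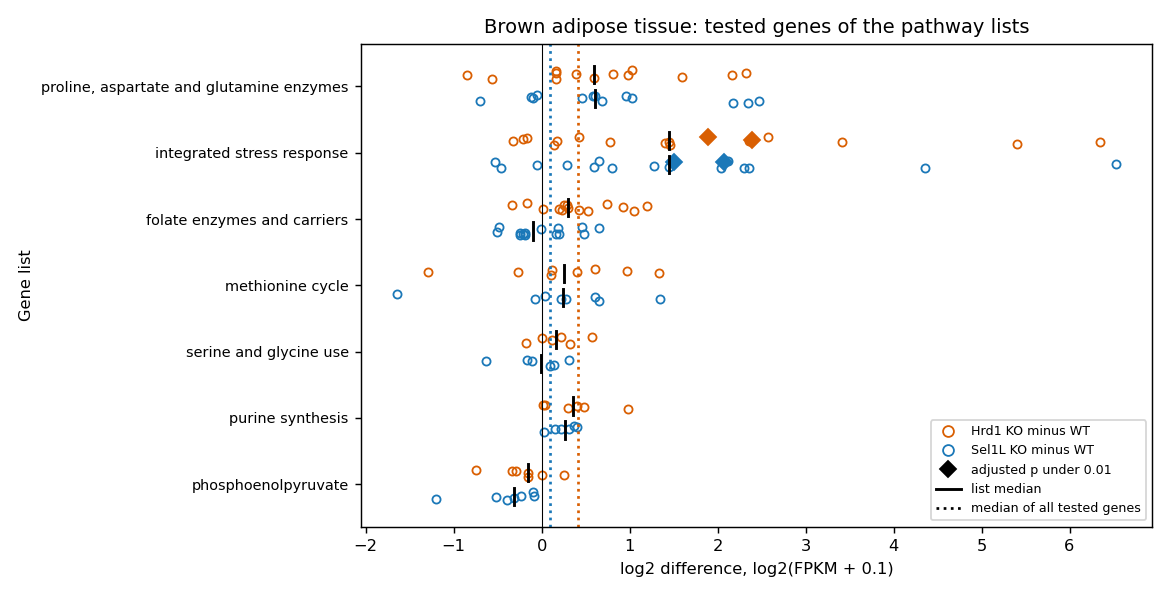
Log2 difference from WT in BAT of every tested gene of the 7 pathway lists, in Hrd1 KO (orange) and Sel1L KO (blue), with list medians as black bars and the medians of all tested genes as dotted lines. The filled diamonds, Atf5 and Nupr1, passed an adjusted p of 0.01, and the stress response and proline and aspartate lists have the highest medians.

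In HEK293T cells, limma called 0 of the 68 tested pathway genes in HRD1 KO and 0 in SEL1L KO, with 0 at an unadjusted p under 0.05 in either and 5 and 6 with the replicate block. Of all 15796 tested genes, 316 and 236 reached that p without the block, and 968 and 874 with it. The largest stress response values were -1.29 ± 1.74 for GDF15 and -1.07 ± 1.86 for NUPR1 in HRD1 KO, and -1.96 ± 1.74 for GDF15 and 1.14 ± 0.72 for DDIT3 in SEL1L KO. In the other lists the largest values in HRD1 KO were those of FTCD (0.90 ± 0.60) and SLC46A1 (0.61 ± 0.28), CTH (0.40 ± 0.42) and MTR (-0.32 ± 0.32), SDSL (0.68 ± 0.62) and GCAT (0.16 ± 0.17), PFAS (0.22 ± 0.23) and PPAT (-0.14 ± 0.33), PYCR1 (0.32 ± 0.26) and ASL (0.32 ± 0.27), and PC (0.42 ± 0.25) and PKM (0.12 ± 0.22). In SEL1L KO they were, among others, those of FTCD (-0.43 ± 0.60), CTH (0.45 ± 0.42) and MAT2A (-0.20 ± 0.30), SRR (-0.48 ± 0.35) and GCAT (0.28 ± 0.17), PFAS (0.34 ± 0.23) and ADSL (0.34 ± 0.18), ASS1 (0.58 ± 0.63) and PYCR1 (0.51 ± 0.26), and PGK1 (-0.24 ± 0.23) and PGAM1 (-0.20 ± 0.27). Without the block, none of these was distinguishable from the spread between libraries. With it, an unadjusted p under 0.05 was reached by SLC46A1, GDF15 and PYCR1 in HRD1 KO and by DDIT3, GDF15, PYCR1 and SRR in SEL1L KO, of which DDIT3 had the smallest adjusted p from limma (0.052). DDIT3 in HRD1 KO, outside the naming rule, was at 0.82 ± 0.15 with an adjusted p of 0.17.

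The genes whose pattern over the libraries was most like that of MTHFD2 were found by the mean absolute difference of log2 values, after both were centred on WT. In BAT, over 8 libraries, they were Manf, Gm14964 and Extl1, at 0.46, 0.53 and 0.56. Manf, a secreted protein of the endoplasmic reticulum, was 39.5, 28.2 and 27.1 FPKM in WT, 343 and 484 in Hrd1 KO and 1327, 267 and 275 in Sel1L KO, again highest in Sel1L KO replicate 1. In HEK293T cells, over 9 libraries, they were PPP1R3D, GYG1 and SIAH2, at 0.064, 0.085 and 0.089, where MTHFD2 itself varied little. No gene was among those named in both tables.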

How the data were processed

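Paired-end polyA libraries were sequenced on the same flow cell. Per the labels and the study's methods, the authors aligned reads with STAR 2.7.8a, checked them with FastQC 0.11.8 and estimated expression with RSEM 1.3.3 against ENSEMBL GRCh38 and GRCm38, and deposited FPKM per gene and library, 1 file per species, with 2 decimals, without counts. The authors tested differences with DESeq2 on estimated counts, which FPKM do not allow. Depth in reads is therefore unknown; from the steps of low values, relative depth differed by up to 1.86 times among HEK293T and 1.70 times among BAT libraries. As FPKM are scaled to each library's total, a very abundant transcript can lower the rest. All 17 value columns were mapped to samples by name, and 0 were left without one.

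Genes with at least 1 FPKM in 3 HEK293T or 2 BAT libraries were kept (15796 and 12473). limma 3.58.1 (R 4.3.3, with the data.table package, version 1.17.8) was fitted to log2(FPKM + 0.1) with a variance trend over the 3 groups of a table, without a replicate block, with Benjamini-Hochberg adjustment over all kept genes. Genes were called at an adjusted p under 0.05 in HEK293T cells and 0.01 in BAT. Isoenzyme ratios were compared with two-sided exact permutation tests. Other steps used Python 3.11.15, pandas 2.3.3, NumPy 2.4.6, SciPy 1.17.1 and matplotlib 3.10.9. In simulated data, 200 genes were moved up or down by 2 or 3 on the log2 scale in HRD1 KO or Hrd1 KO. The noise was independent and normal, with no replicate effect and no shift of the whole table. There the HEK293T fit recovered 73.5% and called 7 unchanged genes of 15796, and the BAT fit recovered 55.5% and called 3 of 12473. These shares do not cover smaller differences, such as those of the members in HEK293T cells.

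Same-numbered HEK293T libraries deviated together from their group means (r from 0.216 to 0.485 in 9 pairs, against -0.396 to 0.027 in 18 pairs of different numbers), so their numbers were taken as pairing, a hint from the data since the labels do not say what they mark. Alternatives were other pseudocounts, no filter, median-ratio and quantile scaling, no trend, 2 groups only, the replicate block and leaving out each library. The members and lists were chosen with earlier results of these data known. Named were the 10 members, SEL1L and SYVN1, per list up to 4 called genes by size or else the 2 largest values, and the 3 genes most like MTHFD2 per table; between the knockouts, lists are given by counts only: 0 of 71 pathway genes were called in BAT (6 at an unadjusted p under 0.05) and 0 of 68 in HEK293T cells (1). Some genes of these lists are not reported here by name.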

Additional observations from a re-analysis of the deposited data

How the results depend on the processing

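With 2 or 3 libraries a group and FPKM in place of counts, even differences of several standard errors could miss the threshold. Pycr1 at 2.32 ± 0.61 in Hrd1 KO was not called. Its size also depended on the processing, from 0.87 to 3.03 under the alternative settings other than leaving out a library. Called members stayed at 0 in HEK293T cells under every alternative run. For BAT, settings that left 1 Hrd1 KO library are not counted here. Members above WT in all libraries of both genotypes then stayed at 7 of 10, beside 926 to 3392 of 12473 tested genes. Dropping Sel1L KO replicate 1 gave 8 for that genotype alone, but the tested genes above WT also went from 2206 to 4292. The members were chosen with these levels known, so nothing is read from these counts. The cause of the changes below was not tested. Tested genes called in HRD1 KO numbered 9, with 25 under the replicate block, 2 with 2 groups only and 2 to 18 with 1 library left out. In SEL1L KO they numbered 5, with 9 without a filter, 12 under the block and 0 to 9 with 1 library left out. Between HRD1 KO and SEL1L KO they numbered 0, with 2 under the block, 1 without a trend and 0 to 13 with 1 library left out. In BAT, Hrd1 KO had 46, with 5 after median-ratio scaling, 18 after quantile normalization, 5 under the block, 213 with 2 groups only and 1 to 759 with 1 library left out (759 without Sel1L KO replicate 1). Sel1L KO had 13, with 1 without a filter, after either scaling, under the block and with 2 groups only, 2 without a trend, and 1 to 61 with 1 library left out. Between Hrd1 KO and Sel1L KO there were 5, with 8 at a pseudocount of 1, 14 without a filter or without a trend, 0 with 2 groups only and 1 to 8 with 1 library left out. BAT numbers did not pair the libraries (r from -0.060 to 0.077 in 7 same-numbered pairs and -0.090 to 0.060 in 14 others), and the block ended the calls of Atf5 and Nupr1; it changed no other call of a named gene in either table.

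Glyctk in Hrd1 KO turned to -0.10 after median-ratio scaling and -0.27 after quantile normalization, and SHMT2 in SEL1L KO to 0.051 after median-ratio scaling. With 1 library left out, the sign of several small log2 differences also turned. In HRD1 KO the ranges were -0.27 to 0.60 for ASNS, -2.81 to 0.35 for GDF15, -0.18 to 0.0041 for MTHFD1L, -0.016 to 0.31 for MTHFD2, -2.08 to 0.75 for NUPR1, -0.062 to 0.85 for PCK2, -0.061 to 0.30 for PKM, -0.40 to 0.28 for PPAT, -0.011 to 0.29 for PSAT1, -0.17 to 0.20 for PSPH and -0.13 to 1.26 for SDSL. In SEL1L KO they were -0.079 to 0.85 for ASNS, -0.17 to 1.13 for ASS1, -0.50 to 0.0061 for MAT2A, -0.033 to 0.15 for MTHFD1L, -0.083 to 0.90 for PCK2, -0.020 to 0.39 for PHGDH, -0.025 to 0.39 for PSPH and -0.10 to 0.15 for SHMT2. In BAT they were -0.45 to 3.12 for Cbs, -0.87 to 0.20 for Fbp2, -0.57 to 0.34 for Psph and -0.31 to 0.16 for Shmt1 in Hrd1 KO, -0.12 to 0.71 for Glyctk in Sel1L KO and -0.78 to 0.054 for Mthfd2 and -0.093 to 0.82 for Psph between the knockouts. For the isoenzyme ratios they were -0.29 to 0.032 and -0.16 to 0.16 for MTHFD1L to MTHFD1, -0.15 to 0.37 and -0.044 to 0.48 for MTHFD2 to MTHFD2L, -0.036 to 0.35 and -0.365 to 0.018 for SHMT2 to SHMT1 in HRD1 KO and SEL1L KO, and -0.33 to 0.52 for PCK2 to PCK1 in HRD1 KO.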

Other observations

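Proliferation markers, summed, were 21.1 to 22.6 FPKM in WT BAT, 29.5 and 29.8 in the libraries labelled Hrd1 KO and 47.1, 30.8 and 28.8 in those labelled Sel1L KO. Fibroblast and endothelial markers, summed, were 104 to 142 in WT, 245.6 and 197 in Hrd1 KO and from 181 to 220.4 in Sel1L KO. In HEK293T cells the summed proliferation markers were 1061 to 1115 in the replicate 1 libraries and 1012 to 1083 in the replicate 3 libraries. The part of these levels in the results was not tested.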
